A study of Mus musculus with 19 samples.

Results

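The genes of the nuclear pore complex were followed across 19 mouse pancreatic organoid lines of ductal origin. A gene was taken as a member when its name in the expression table begins with Nup and a digit, or when it is Nupl1, Nupl2, Seh1l, Sec13, Tpr, Rae1, Ranbp2, Aaas, Ndc1 (listed there under its older name, Tmem48), Pom121 or Ahctf1. The rule found 33 of 29861 rows of the table. Of these, 31 passed the filter for testing, a TPM (a transcript's length-corrected share of its library) of at least 1 in at least 6 lines, as did 12500 genes in all. The 2 members that did not pass were Nup210l, a paralogue of Nup210, with 0.56 to 0.93 TPM over all lines, and Nup62-il4i1, a read-through transcript that shares exons with Nup62, with 0 to 0.07 TPM.

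An organoid line is an epithelial culture kept as small hollow spheres inside a gel. The tumor group held 6 lines from pancreatic adenocarcinomas of mice with Pdx1-Cre, a transgene that switches on floxed alleles in the pancreatic epithelium, and a Cre-activated Trp53 R172H allele. The PanIN group held 6 lines from ducts of Pdx1-Cre pancreas that contained pancreatic intraepithelial neoplasia, a precursor lesion of ductal adenocarcinoma, and no Trp53 allele is listed for these mice. The normal group held 7 lines from ducts of wild-type pancreas with normal histology. The background of every mouse was C57B6/J, with 11 female and 8 male lines. All groups shared a Matrigel culture and 1 medium, whose additions include the TGF-beta receptor inhibitor A83-01, EGF, gastrin, noggin, FGF-10 and R-spondin. Neither the ages of the mice nor any sharing of mice or litters between lines is given in the sources used here, so a p-value reflects the line-to-line spread and nothing wider. Tumor and PanIN lines differ in both the lesion and the Trp53 allele, and these cannot be told apart. Tumor and normal lines differ in the lesion, Pdx1-Cre and the Trp53 allele, and PanIN and normal lines in the lesion and Pdx1-Cre. These cannot be told apart either.

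The nuclear pore complex is the channel through which proteins and RNA cross the nuclear envelope. Its scaffold is built from Y-shaped complexes that form the outer rings, an inner ring, and transmembrane proteins that anchor it in the membrane. Nucleoporins rich in phenylalanine-glycine (FG) repeats line the channel and bind the transport receptors. Cytoplasmic filaments and a nuclear basket extend from the faces. In proliferating cells the complex is taken apart at mitosis and rebuilt around the chromatin, and the number of pores increases before the next division.

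In tumor lines 14 of the 31 tested nucleoporin transcripts were higher than in normal lines and 0 were lower. Of all tested genes 17.8% were higher and 14.4% lower. PanIN lines had 0 of the 31 higher and 0 lower than normal lines, where 3.1% of all tested genes were higher and 3.68% lower. The nucleoporin genes higher in tumor lines were 8 of 9 members of the Y complex, 3 of 3 of the central channel, 2 of 7 of the cytoplasmic filaments and 1 of 5 of the inner ring, with 0 of 3 of the transmembrane members and 0 of 3 of the basket. The differences were modest, between 1.12-fold and 1.46-fold, and the lines overlapped.

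Duct markers were abundant and markers of other pancreatic cell types were at or near 0. The summed level of 10 duct markers (among them Krt19, Krt8, Epcam and Sox9) was 6609 to 8831 TPM in tumor lines, 7412 to 11609 TPM in PanIN lines and 9851 to 14749 TPM in normal lines. In tumor lines 3 of these 10 duct markers were lower and 0 higher than in normal lines, where 14.4% of all tested genes were lower and 17.8% higher. The summed acinar markers reached at most 2.37 TPM in any line, with only Cela1 at 1 TPM or more of 7 markers, the immune markers at most 4.08 TPM, with only Cd68 at 1 TPM or more of 6, and the endocrine, fibroblast and endothelial markers at most 0.17 TPM. Between 11938 and 12437 genes had a TPM of at least 1 in each line. A group of 11 rows for which the authors gave no comparison, several with names of mitochondrial transcripts, made up between 16.3% and 28.6% of each line's TPM. TPM does not record depth, so how many reads support a value in a line is unknown and counting intervals could not be computed. The authors' base mean, a signal averaged over all lines, was not used for this. In bulk RNA, fewer cells of a type and less RNA per cell cannot be told apart, and TPM shows a transcript's share and not its amount per cell. A few lines stood apart from their groups: PanIN line 6 was high and normal line 11 low for many members, and counts without them stand beside the results.

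Nucleoporin transcripts covered a wide range of levels (TPM). Sec13, a Y complex subunit that also forms the outer coat of COPII vesicles, was the most abundant, at 164 ± 19.05 TPM in tumor lines, 145 ± 10.9 TPM in PanIN lines and 152 ± 6.73 TPM in normal lines (SD, n = 6, 6 and 7). Nup160, a core subunit of the same complex, averaged 20.3 ± 3.77 TPM in tumor lines, 14.8 ± 3.16 TPM in PanIN lines and 13.9 ± 1.85 TPM in normal lines. The subunits of 1 complex were thus not present at equal transcript levels. Ranbp2, the large filament protein that binds Ran and acts as a SUMO ligase, averaged 87.9 ± 5.22 TPM in tumor lines, 81.0 ± 14.4 TPM in PanIN lines and 85.6 ± 4.47 TPM in normal lines. At the other end, Nup214, which carries FG repeats on the cytoplasmic face, averaged 4.56 ± 0.58 TPM in tumor lines, 3.71 ± 0.82 TPM in PanIN lines and 3.79 ± 0.67 TPM in normal lines. Pom121, a transmembrane FG nucleoporin, stayed under 5 TPM in every line, and Nup62cl, a Nup62 paralogue, under 2 TPM.

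**Figure D1:**
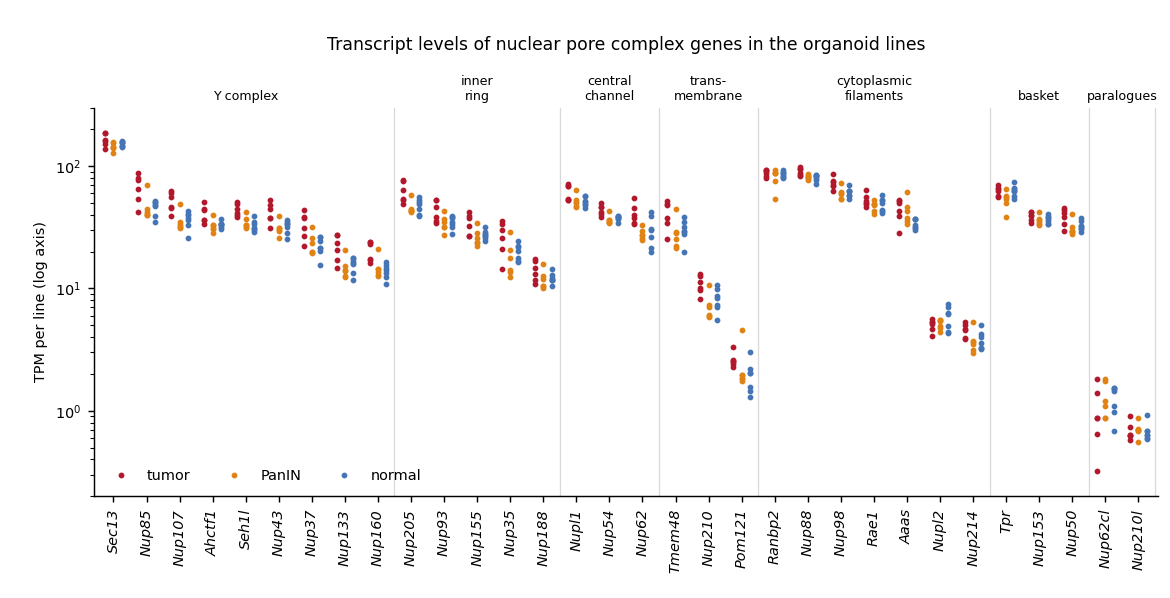
TPM (log axis) of 32 nucleoporin rows in each of 19 organoid lines, grouped by subcomplex, with tumor, PanIN and normal lines side by side for each gene. Levels run from Sec13 above 100 TPM to Nup62cl and Nup210l near 1 TPM.

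The region just upstream of the start was examined for members that share a motif, since several members moved together. Promoter windows (250 bases before to 50 bases after the start; RefSeq, build GRCm38.p6, whereas the expression table was made with mm9) were available for 28 members, in 31 windows. The NRF1 core motif GCGCATGC, read on both strands, occurred in windows of 4 members (Nup107, Nup62, Nupl1 and Nup50), or 12.9% of member windows, against 2.71% of 32851 windows of all genes. Windows of Nup107, Nup62 and Nup50 carry the full palindrome and are shown for that reason; that of Nup160 is shown as a Y complex gene with no match. In capitals are the NRF1 palindrome and the CCAAT box (CCAAT, or ATTGG on the other strand). Printed is the part of each window before the start, shortened for Nup107 to 219 bases. The Nup107 stretch is on the minus strand at chr10:117792737-117792955, that of Nup62 on the plus strand at chr7:44815838-44816087, that of Nup50 on the plus strand at chr15:84923178-84923427 and that of Nup160 on the plus strand at chr2:90676965-90677214.
Nup107: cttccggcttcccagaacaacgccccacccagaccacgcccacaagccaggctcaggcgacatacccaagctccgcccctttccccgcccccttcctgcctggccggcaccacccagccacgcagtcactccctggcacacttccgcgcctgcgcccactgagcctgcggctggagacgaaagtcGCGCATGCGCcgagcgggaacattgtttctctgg
Nup62: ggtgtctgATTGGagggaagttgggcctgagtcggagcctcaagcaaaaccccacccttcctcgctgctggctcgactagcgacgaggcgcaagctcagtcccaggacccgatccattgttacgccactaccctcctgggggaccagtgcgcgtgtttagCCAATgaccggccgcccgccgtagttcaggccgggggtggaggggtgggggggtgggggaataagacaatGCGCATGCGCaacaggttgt
Nup50: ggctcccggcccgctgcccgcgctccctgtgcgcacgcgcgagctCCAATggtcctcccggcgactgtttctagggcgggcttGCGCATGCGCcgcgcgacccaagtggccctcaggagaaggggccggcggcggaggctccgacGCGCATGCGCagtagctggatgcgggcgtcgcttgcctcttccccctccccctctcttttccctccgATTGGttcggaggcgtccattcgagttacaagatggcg
Nup160: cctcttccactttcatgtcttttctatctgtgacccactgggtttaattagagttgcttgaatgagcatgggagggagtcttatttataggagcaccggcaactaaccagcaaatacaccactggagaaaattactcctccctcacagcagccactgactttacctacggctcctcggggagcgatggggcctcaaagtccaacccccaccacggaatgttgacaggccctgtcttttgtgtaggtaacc

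Other motifs were searched in the same windows on both strands, with no overlap between the motifs counted. The ETS site CCGGAAGT was present for 5 members (Sec13, Nup54, Aaas, Rae1 and Nup155), in 16.1% of member windows against 3.89% of all windows. The E-box CACGTG was present for 4 members, in 12.9% against 7.15%. The CCAAT box was present for 11 members, in 41.9% against 37.4%, and the CHR element TTTGAA for 6 members, in 22.6% against 17.9%. The E2F sites TTTGGCGC and TTTCGCGC were in 0 of 31 member windows, against 0.813% of all windows. Of the 11 members with a window that were higher in tumor lines, 3 held the NRF1 core motif, 1 the ETS site, 1 the E-box, 4 the CCAAT box and 2 the CHR element. Of the 17 other members with a window, 1 held the NRF1 core motif, 4 the ETS site, 3 the E-box, 7 the CCAAT box and 4 the CHR element. These are matches of letters and carry no measurement of binding.

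The comparison of tumor with normal lines asked which nucleoporin transcripts differ between these groups, which differ in both lesion and genotype. A gene was called when its adjusted p was below 0.05 in limma on log2(TPM + 1), fitted over all 19 lines and adjusted by Benjamini-Hochberg over 12500 genes; fold changes are on that scale, which understates changes of low genes. By this rule 14 of 31 members (45.2%) were higher in tumor lines, where 17.8% of all tested genes were higher, and 0 were lower, where 14.4% of all tested genes were lower; 20 members were higher and 0 lower at an unadjusted p below 0.05. The difference was positive for 28 of 31 members. Its median over the members was 0.28 on the log2 scale (1.21-fold), against 0.039 (1.03-fold) over all tested genes. In the authors' deposited table, 17 of 32 members with an adjusted p were higher and 0 lower in tumor lines, where 16.2% of all genes with an adjusted p were higher and 16.4% lower, and the 17 include all 14 named here. No member had every tumor line above every normal line (0 of 31, against 2.9% of all tested genes). The count rested on few lines: without tumor line 5 it was 4, without tumor line 8 it was 4 and without tumor line 9 it was 9, whereas without tumor line 4 it was 21. It was 20 without PanIN line 6, which enters the fit through the shared spread, and 10 without normal line 11. Over all 12500 genes the higher calls moved too, to 1539, 1324 and 1472 without tumor lines 5, 8 and 9. They were 2838 without tumor line 4, 2508 without PanIN line 6 and 1635 without normal line 11, against 2219 with all lines. When the 11 rows without an authors' comparison were taken out and TPM rescaled, 9 members were higher and 0 lower, and over all 12882 genes then tested 1463 were higher and 2451 lower, against 2219 higher and 1805 lower of 12500 before.

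**Figure D2:**
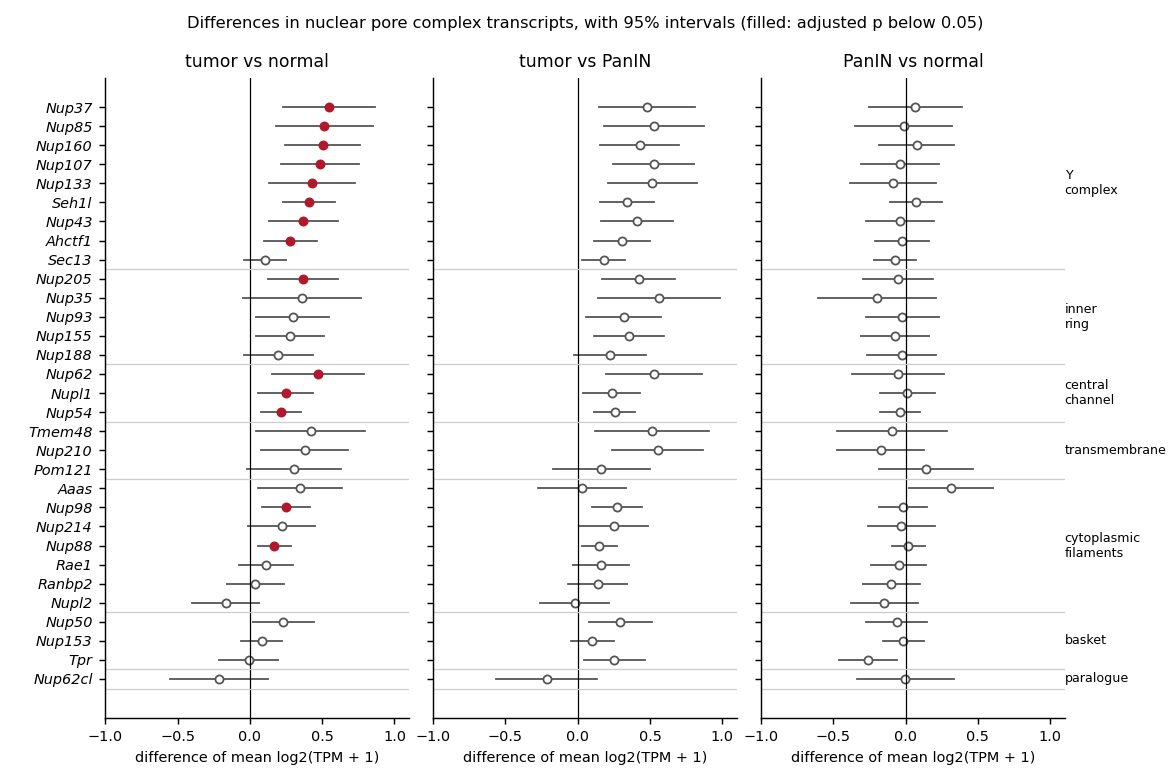
Difference of mean log2(TPM + 1), with its 95% interval, for 31 nucleoporin transcripts in tumor against normal, tumor against PanIN and PanIN against normal lines, by subcomplex. Filled points are the 14 transcripts with an adjusted p below 0.05, all in the first panel and 8 of them in the Y complex.

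The Y complex was the subcomplex with the most members higher in tumor lines, 8 of 9, all but Sec13, and its median difference was 0.43 on the log2 scale. Seh1l, a subunit shared with the nutrient-sensing GATOR2 complex, had a lowest, median and highest level of 38.2, 43.0 and 51.0 TPM in tumor lines, 31.2, 32.8 and 42.2 TPM in PanIN lines and 29.1, 31.5 and 39.1 TPM in normal lines. Nup160 had 16.1, 20.2 and 23.9 TPM in tumor lines, 12.5, 14.0 and 21.1 TPM in PanIN lines and 10.9, 14.2 and 16.4 TPM in normal lines. For Nup107, the subunit after which the complex is often named, these levels were 38.9, 51.2 and 63.0 TPM in tumor lines, 31.4, 33.1 and 48.7 TPM in PanIN lines and 25.9, 37.8 and 42.9 TPM in normal lines. For each of these 3 genes, 5 of 6 tumor lines lay above all 7 normal lines and the remaining line, tumor 4, lay within the normal range. The difference between tumor and normal lines was 0.41 ± 0.087 for Seh1l (SE; 1.33-fold, limma adjusted p = 0.00244). It was 0.50 ± 0.12 for Nup160 (1.42-fold, limma adjusted p = 0.00631). It was 0.48 ± 0.13 for Nup107 (1.398-fold, limma adjusted p = 0.00935).

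Nup37, a small propeller subunit, had the largest fold among the members, 1.46 (log2 difference 0.55 ± 0.15, limma adjusted p = 0.0120). Its lowest, median and highest levels were 22.3, 34.4 and 43.3 TPM in tumor lines, 19.3, 21.8 and 31.8 TPM in PanIN lines and 15.6, 21.5 and 26.4 TPM in normal lines, and 5 of 6 tumor lines lay above all normal lines. Like Seh1l, Nup160 and Nup107, it kept its call in 19 of 19 leave-one-out fits. Nup43, another small subunit, had 31.4, 41.4 and 52.6 TPM in tumor lines, 26.1, 30.6 and 39.0 TPM in PanIN lines and 25.2, 33.4 and 36.6 TPM in normal lines. Nup85, which holds Seh1l in the short arm of the Y, had 42.2, 70.8 and 87.6 TPM in tumor lines, 39.5, 41.2 and 70.0 TPM in PanIN lines and 34.6, 48.0 and 51.6 TPM in normal lines. In both, tumor line 4 lay below the normal median while the other 5 tumor lines lay above all normal lines. Nup43 differed by 0.37 (1.29-fold, limma adjusted p = 0.0199) and Nup85 by 0.51 (1.43-fold, limma adjusted p = 0.0205).

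Ahctf1, also called Elys, recruits Y complexes to chromatin when pores are rebuilt after mitosis. It had 33.8, 40.2 and 50.8 TPM as lowest, median and highest levels in tumor lines, 28.6, 32.3 and 39.5 TPM in PanIN lines and 30.8, 33.3 and 36.7 TPM in normal lines. Only 3 tumor lines lay above all normal lines, and the difference was 0.28 (1.21-fold, limma adjusted p = 0.0223). Nup133, at the base of the Y stalk, averaged 21.7 ± 5.29 TPM in tumor lines, 14.7 ± 3.01 TPM in PanIN lines and 15.6 ± 2.19 TPM in normal lines (SD), a tumor-normal difference of 0.43 (1.35-fold, limma adjusted p = 0.0287). Sec13 did not pass the test, with 138, 162 and 187 TPM in tumor lines, 128, 143 and 157 TPM in PanIN lines and 142, 154 and 160 TPM in normal lines. Its difference was 0.11, with a 95% interval of -0.038 to 0.25 (limma adjusted p = 0.242).

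**Figure D3:**
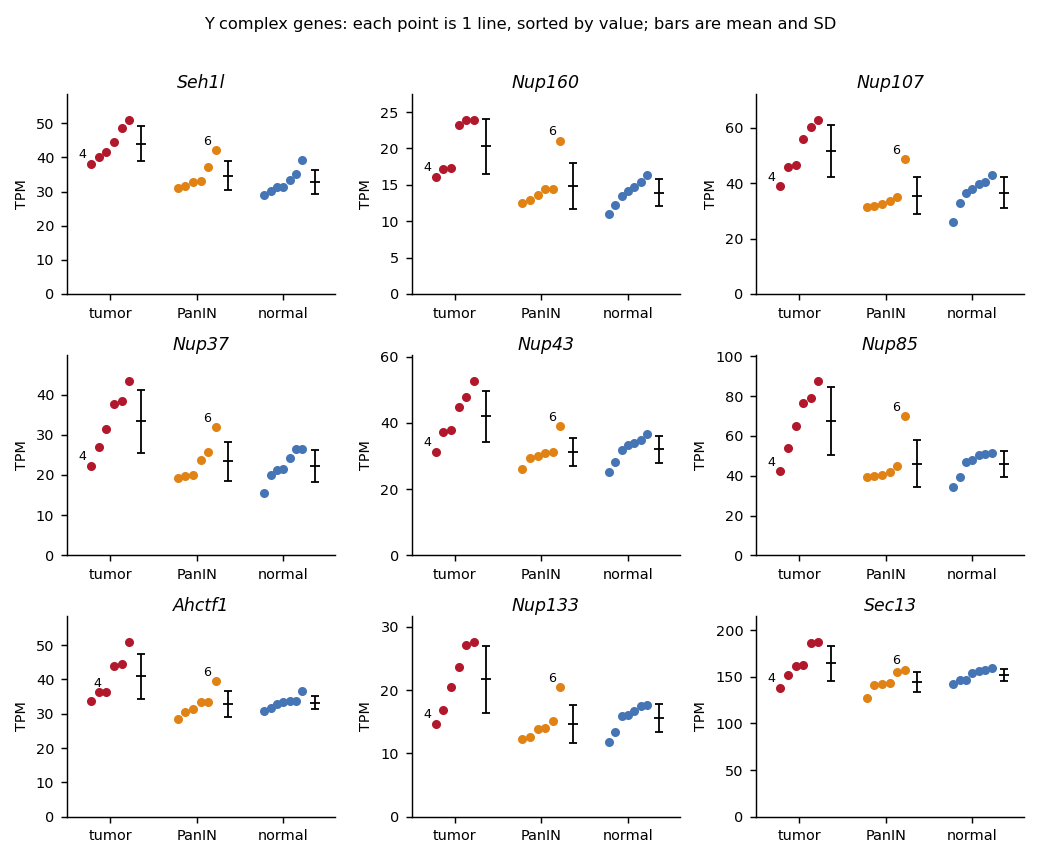
TPM of the 9 Y complex transcripts, 1 point per line sorted by value within each group, with the mean and SD of 6 tumor, 6 PanIN and 7 normal lines beside the points. The points marked 4 and 6 are tumor line 4, within the normal range for 8 of the genes shown and below it for Sec13, and PanIN line 6, the highest PanIN line for all 9.

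In the central channel all 3 members were higher in tumor lines, with a median difference of 0.25. Nup62, the FG nucleoporin at the core of the channel whose promoter palindrome is shown earlier, had 33.9, 38.7 and 55.1 TPM as lowest, median and highest levels in tumor lines, 24.9, 27.3 and 33.0 TPM in PanIN lines and 19.8, 30.1 and 42.4 TPM in normal lines. Nup54, its partner, had 38.3, 44.1 and 49.7 TPM in tumor lines, 34.1, 35.8 and 42.7 TPM in PanIN lines and 34.1, 38.0 and 39.1 TPM in normal lines. Nupl1, now called Nup58, had 52.5, 61.0 and 71.6 TPM in tumor lines, 46.6, 50.1 and 63.5 TPM in PanIN lines and 45.1, 51.2 and 56.7 TPM in normal lines. Nup62 varied widely among normal lines, so that only 2 tumor lines lay above all of them, whereas 5 tumor lines did so for Nup54. The tumor-normal differences were 0.47 for Nup62 (1.39-fold, limma adjusted p = 0.0255), 0.22 for Nup54 (1.16-fold, limma adjusted p = 0.0196) and 0.25 for Nupl1 (1.19-fold, limma adjusted p = 0.0459). Nupl1 kept its call in 7 of 19 leave-one-out fits.

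Of the inner ring, 1 of 5 members was higher in tumor lines, although the median difference was 0.30. That member was Nup205, a large scaffold protein, with 49.2, 58.8 and 76.2 TPM as lowest, median and highest levels in tumor lines, 41.9, 43.3 and 58.5 TPM in PanIN lines and 39.3, 48.7 and 56.4 TPM in normal lines (difference 0.37, 1.29-fold, limma adjusted p = 0.0223). Its paralogue Nup188, the least abundant of the ring, had 10.9, 14.0 and 17.5 TPM in tumor lines, 10.0, 11.3 and 15.9 TPM in PanIN lines and 10.4, 11.8 and 14.3 TPM in normal lines, and did not pass (0.20, limma adjusted p = 0.195). The other 3, Nup93, Nup155 and Nup35 (which connect the ring and touch the membrane), had differences of 0.30, 0.28 and 0.36 with limma adjusted p of 0.0649, 0.0630 and 0.158. Nup35 was the most variable of them, with 14.5 to 35.4 TPM in tumor lines against 16.5 to 24.4 TPM in normal lines.

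None of the 3 transmembrane members passed the test, with a median difference of 0.38. Nup210 had 8.19, 10.7 and 13.1 TPM as lowest, median and highest levels in tumor lines, 5.85, 6.54 and 10.6 TPM in PanIN lines and 5.48, 8.31 and 10.6 TPM in normal lines, a difference of 0.38 just outside the threshold (limma adjusted p = 0.0510). Tmem48 (Ndc1), which helps to insert new pores into the membrane, had 25.4, 42.9 and 52.2 TPM in tumor lines, 21.4, 26.9 and 44.8 TPM in PanIN lines and 19.7, 29.2 and 38.1 TPM in normal lines (0.42, limma adjusted p = 0.0807). Pom121 had 2.27, 2.53 and 3.31 TPM in tumor lines, 1.75, 1.90 and 4.58 TPM in PanIN lines and 1.30, 2.02 and 3.05 TPM in normal lines (0.31, limma adjusted p = 0.136). Their differences were of a size with those of the Y complex, and 2 of the 3 had an unadjusted p below 0.05.

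Among the cytoplasmic filaments and their mRNA export partners, 2 of 7 members were higher in tumor lines and the median difference was 0.17. Nup98, whose transcript also encodes the Y complex protein Nup96, had 62.4, 71.8 and 85.7 TPM as lowest, median and highest levels in tumor lines, 53.8, 59.9 and 72.2 TPM in PanIN lines and 53.9, 62.4 and 69.5 TPM in normal lines (0.25, 1.19-fold, limma adjusted p = 0.0234). Nup88, which holds Nup214 at the pore, averaged 90.3 ± 6.27 TPM in tumor lines, 81.2 ± 3.22 TPM in PanIN lines and 80.3 ± 4.81 TPM in normal lines (SD; 0.17, 1.12-fold, limma adjusted p = 0.0265). Both were called on small, tight differences. Ranbp2 overlapped between the groups, and 2 tumor lines lay above all normal lines. Ranbp2 had 80.2, 88.9 and 93.3 TPM in tumor lines, 54.0, 87.7 and 93.1 TPM in PanIN lines and 79.9, 86.3 and 92.4 TPM in normal lines (0.037, limma adjusted p = 0.788). Nup214 had 3.86, 4.61 and 5.28 TPM in tumor lines, 2.98, 3.58 and 5.27 TPM in PanIN lines and 3.20, 3.57 and 5.0 TPM in normal lines (0.22, limma adjusted p = 0.133). Aaas, whose human form is mutated in triple A syndrome, Rae1, an mRNA export factor, and Nupl2, which docks the export helicase activator Gle1, had differences of 0.34, 0.11 and -0.17 and did not pass (limma adjusted p = 0.0641, 0.359 and 0.252).

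In the nuclear basket 0 of 3 members were called in tumor against normal lines, with a median difference of 0.083, the lowest of the 6 subcomplexes in this comparison. Tpr, the long coiled-coil protein that forms the basket filaments, had 56.1, 63.8 and 69.4 TPM as lowest, median and highest levels in tumor lines, 38.2, 54.8 and 64.4 TPM in PanIN lines and 54.2, 62.9 and 74.0 TPM in normal lines. Its difference was -0.0085, with a 95% interval of -0.21 to 0.19. Nup153, which anchors the basket, differed by 0.083, with an interval of -0.060 to 0.23. Nup50, a mobile basket protein with the promoter palindrome shown earlier, had 29.6, 39.8 and 45.7 TPM in tumor lines, 28.1, 29.4 and 40.5 TPM in PanIN lines and 28.9, 32.1 and 37.9 TPM in normal lines (0.23, limma adjusted p = 0.0837). The upper ends of the Tpr and Nup153 intervals lie below the estimates of 8 of 9 Y complex members, and the difference between subcomplexes was not tested.

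The comparison of tumor with PanIN lines gave differences of similar size, and it shares the tumor lines with the comparison above. No member was called (0 of 31 higher, 0 lower), where 0.392% of all tested genes were higher and 1.21% lower by limma, whereas 23 members were higher and 0 lower at an unadjusted p below 0.05. The difference was positive for 29 of 31 members, with a median of 0.29 against 0.055 over all tested genes. By subcomplex the median was 0.51 for the transmembrane members, 0.43 for the Y complex, 0.35 for the inner ring, 0.25 for the central channel, 0.25 for the basket and 0.15 for the cytoplasmic filaments, so that the basket was not the lowest here. The smallest adjusted p was that of Nup107 (difference 0.53, 95% interval 0.25 to 0.80, limma adjusted p = 0.0507), followed by Seh1l (0.34, interval 0.15 to 0.53, limma adjusted p = 0.0580). Nup62 was the 1 member with every tumor line above every PanIN line, against 0.832% of all tested genes. In the authors' deposited table, 13 of 31 members with an adjusted p were higher and 0 lower, where 5.1% of all genes with an adjusted p were higher and 6.55% lower. The count turned on single lines: 21 members were higher without PanIN line 6, 20 without tumor line 4, 9 without normal line 11, 4 without tumor line 7 and 2 without tumor line 3, and over all genes the higher calls were 1987 without PanIN line 6 and 1660 without tumor line 4, against 49 with all lines.

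In PanIN against normal lines 0 of 31 members were higher and 0 lower, where 3.1% of all tested genes were higher and 3.68% lower by limma. At an unadjusted p below 0.05, 1 member was higher (Aaas, 0.31, limma adjusted p = 0.220) and 1 lower (Tpr, -0.26, limma adjusted p = 0.122). The median difference over the members was -0.039, against -0.029 over all tested genes. The authors' deposited table likewise had 0 of 32 members higher and 0 lower, where 5.53% of all genes with an adjusted p were higher and 4.94% lower. Without PanIN line 6 the median was -0.10 and the count stayed at 0.

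**Figure D4:**
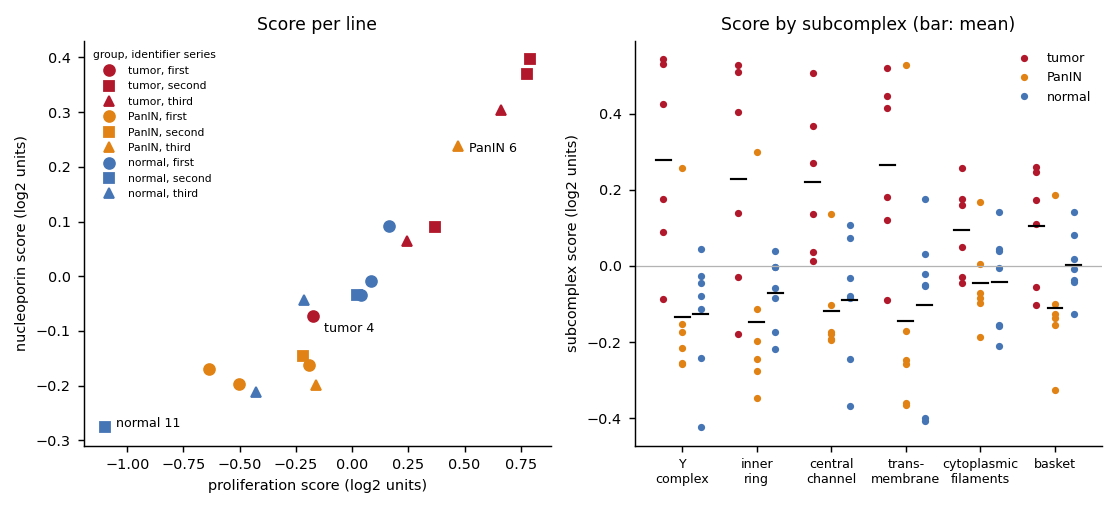
Left, nucleoporin score against proliferation score of each line (mean log2(TPM + 1) of the tested genes of each list minus its mean over 19 lines), colored by group and shaped by identifier series. Right, the same score by subcomplex, with 1 point per line and a bar for the group mean; tumor lines 5, 8 and 9 and PanIN line 6 hold the 4 highest values of both scores in the left panel.

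The lines within a group differed as much as the groups did. A nucleoporin score was computed for each line as the mean log2(TPM + 1) of the 31 tested members minus its mean over the 19 lines. It was 0.40, 0.37 and 0.30 in tumor lines 5, 8 and 9, and 0.089, 0.065 and -0.073 in tumor lines 7, 3 and 4. PanIN line 6 had 0.24, and the other 5 PanIN lines had -0.20 to -0.15. Normal lines ran from -0.28 (line 11) to 0.092 (line 7). In tumor lines 8, 5 and 9, 26, 25 and 24 members were above all 7 normal lines, as were 24 in PanIN line 6. Tumor lines 7, 3 and 4 had 14, 10 and 2 such members, and each of the other 5 PanIN lines 1 or 2. Tumor line 5 held the highest value of all lines for 16 members, and normal line 11 the lowest for 12. These counts by line were not made over all tested genes, so no background share stands beside them.

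Proliferation moved with these scores. For a list of 30 cell cycle genes, 22 were higher and 0 lower in tumor lines than in normal lines, with a median difference of 0.64. Of all tested genes 17.8% were higher and 14.4% lower, with a median of 0.039. E2f2, which activates S phase genes, averaged 4.73 ± 1.43 TPM in tumor lines and 1.72 ± 0.67 TPM in normal lines (SD). Mybl2, a cell cycle transcription factor, averaged 20.2 ± 8.21 TPM in tumor lines and 9.46 ± 3.55 TPM in normal lines, and Rrm2, a subunit of ribonucleotide reductase, 102 ± 38.9 TPM in tumor lines and 51.3 ± 14.3 TPM in normal lines. The proliferation score was 0.79, 0.78 and 0.66 in tumor lines 5, 8 and 9 and 0.47 in PanIN line 6, the same 4 lines that led the nucleoporin score. It was -0.17 in tumor line 4 and -1.10 in normal line 11, which was lowest in both. With the proliferation score as a term in the fit, 0 members were higher and 0 lower in tumor than in normal lines by limma (1 higher and 0 lower at an unadjusted p below 0.05), and the median difference over the members was 0.029 in place of 0.28. The smallest adjusted p in that fit was 0.106, for Seh1l. The same term took the number of genes higher in tumor lines over all 12500 to 181, against 2219. Whether more cycling cells account for the nucleoporin levels was not tested.

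The library identifiers in the headings of the expression table fall into 3 series, whose meaning is not stated. The first holds tumor line 4, PanIN lines 1, 2 and 3 and normal lines 5, 6 and 7, the second holds tumor lines 5, 7 and 8, PanIN line 4 and normal lines 10 and 11, and the third holds tumor lines 3 and 9, PanIN lines 5 and 6 and normal lines 12 and 13. Within the second and the third series the median tumor-normal difference over the members was 0.45 and 0.28, and 29 of 31 were positive in each. In the first series, which has only tumor line 4, it was -0.10 and 10 of 31 were positive. The Y complex had medians of 0.68 and 0.48 in the second and the third series and -0.10 in the first, and the proliferation list 1.14, 0.73 and -0.28 in the same order. The tumor-normal difference of the first series rests on 1 tumor line, so a batch and a trait of tumor line 4 cannot be told apart for it. PanIN against normal lines, a comparison without tumor line 4, also had a negative median in the first series, with 3 of 31 members positive. With the series as a term in the fit 12 members were higher in tumor lines (1972 of all tested genes), and 20 without the first series (2963 of all tested genes). For tumor against PanIN lines the median was 0.12, 0.45 and 0.18 in the first, the second and the third series. For PanIN against normal lines it was -0.17, 0.062 and 0.15, so that its sign changed between series. In the second series PanIN line 4 had a nucleoporin score of -0.15, and normal lines 10 and 11 had -0.034 and -0.28. In the third, PanIN lines 5 and 6 had -0.20 and 0.24, and normal lines 12 and 13 had -0.043 and -0.21. The positive medians thus come from the series that hold normal line 11 and PanIN line 6, which stood apart from their groups.

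The FG content of the members was counted in translated coding sequences of the GENCODE M21 annotation, available for 31 of the 33 members. Nupl1, a central channel FG nucleoporin that was higher in tumor lines, was not among them and is left out of the counts that follow. Nup214 had 46 FG dipeptides in 2085 residues, Nup98 41 in 1816 (9 of them in the GLFG form), Nup153 29 in 1462, Pom121 24 in 1200, Ranbp2 20 in 3053 and Nupl2 11 in 420. Only 0.409% of 21538 mouse proteins had 10 or more. Of these 6 FG-rich members 1 was higher in tumor lines, Nup98, and their median tumor-normal difference was 0.15. Of the 24 tested members with fewer than 10 FG dipeptides, 12 were higher and the median was 0.35. Of all tested genes 17.8% were higher, with a median of 0.039. The minimum of 10 was set after the counts were seen, and it leaves Nup54 and Nup62, with 8 and 6 FG dipeptides, on the lower side.

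The transport machinery that uses the pore was described from lists of related genes. Of 29 transport receptors and Ran cycle genes, 16 were higher and 0 lower in tumor than in normal lines, with a median difference of 0.26. Ipo8, an import receptor, averaged 49.6 ± 8.25 TPM in tumor lines and 28.1 ± 2.71 TPM in normal lines (SD; 1.73-fold), and it was also the 1 gene of this list higher in PanIN lines, at 41.9 ± 5.81 TPM (1.47-fold over normal). Xpo4, an export receptor, was 1.53-fold higher in tumor lines, and Ran, the small GTPase that gives transport its direction, 1.46-fold, at 525 ± 126 TPM in tumor lines against 352 ± 35.6 TPM in normal lines. Of 15 mRNA export genes 4 were higher and 0 lower (median 0.13), led by the helicase Ddx39 (1.76-fold), the THO subunit Thoc3 (1.31-fold) and Nxt1, the partner of the export receptor Nxf1 (1.30-fold). Against a background of 17.8% of all tested genes, the transport receptor list had 55.2% higher and the mRNA export list 26.7%.

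Of 14 genes of the nuclear lamina and inner nuclear membrane, 5 were higher and 3 lower in tumor than in normal lines (median 0.074), where 17.8% of all tested genes were higher and 14.4% lower. Lbr, the lamin B receptor, was 1.68-fold higher and Banf1, which binds chromatin to the envelope, 1.47-fold higher. Syne1, the large nesprin that links the nucleus to the cytoskeleton, averaged 2.16 ± 0.94 TPM in tumor lines, 2.72 ± 0.58 TPM in PanIN lines and 5.39 ± 2.12 TPM in normal lines (SD), and was lower in both tumor and PanIN lines. The other lower genes in tumor lines were Syne2 and Lemd2, and in PanIN lines Sun1. The 2 Y complex subunits with other roles were set beside the partners they have there. None of the 3 other GATOR2 genes (Wdr24, Wdr59 and Mios) was called, with differences of 0.051 to 0.077, while Seh1l was higher. Of 9 COPII genes 1 was higher (Sec24a, 1.504-fold) and 0 lower, where 17.8% of all tested genes were higher and 14.4% lower. Their median was 0.094, against 0.11 for Sec13 and a median of 0.039 over all tested genes. Whether Seh1l or Sec13 follows the partners of its other role was not tested.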

How the data were processed

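RNA of 19 organoid lines was measured by sequencing of strand-marked total RNA libraries depleted of ribosomal RNA, per the labels' protocols. The authors deposited 1 table with a TPM value per gene and line. Build mm9, DESeq2 1.4.1, DESeq, FastQC, Bowtie 1.1.0 and RSEM 1.2.11 are named in the submitters' processing notes; no gene annotation is named in the sources used here. Per the file headers, the deposited table also holds the authors' own comparisons: a base mean (a signal averaged over all lines), log2 fold changes, their standard errors and test statistics (a score per gene), and p-values. Counts were not among the values used, so the count tests planned for that case were not run, and the depth of each line is not known.

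Lines were grouped by their titles. Tests ran in R 4.3.3 with limma 3.58.1 on log2(TPM + 1) (eBayes with trend, 1 mean per group over all 19 lines, two-sided, Benjamini-Hochberg over 12500 genes with a TPM of at least 1 in at least 6 lines). The code was first tested on simulated data. Figures were drawn with matplotlib 3.10.9, and coding sequences translated with biopython 1.88. Levels of each line were named for the called members with the 10 smallest p in tumor against normal lines and for the most and least abundant member of each subcomplex; up to 3 genes were named per related list by the smallest p. The members, subcomplexes and lists were chosen with earlier results of these data known. In 32 alternative settings the filter, pseudocount, scaling, terms of the fit and lines were changed. Reads shared by Nup62 and its read-through transcript, and by the 2 proteins encoded by Nup98, cannot be told apart. Some alleles of these mice are not reported here.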

Additional observations from a re-analysis of the deposited data

Results flagged for a closer look

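Within each group, the highest and lowest line of every tested member and of the nucleoporin and proliferation scores were set against their neighbors with Dixon's test at the 95% level. Of 99 tests 11 marked a line, where chance marks about 1 in 20 of independent tests. These tests are not independent, since the nucleoporin score is the mean of the same members and members moved together. The 11 marks can thus not be set against that share. PanIN line 6 was marked as high in 10 of the 11. It had 48.7 TPM of Nup107 (next highest PanIN line 35.1), 21.1 TPM of Nup160 (14.4), 58.5 TPM of Nup205 (44.2), 10.6 TPM of Nup210 (7.31), 5.27 TPM of Nup214 (3.69), 40.5 TPM of Nup50 (31.8), 42.7 TPM of Nup54 (36.5), 70.0 TPM of Nup85 (44.9) and 4.58 TPM of Pom121 (1.97), and a nucleoporin score of 0.24 where the next PanIN line had -0.15. Tumor line 8 was marked as high for Pom121, at 3.31 TPM against 2.59 TPM in the next tumor line. PanIN line 6 also had the highest proliferation score of its group, 0.47. The cause was not tested.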

How the results depend on the processing

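The median difference between tumor and normal lines over the members stayed positive in all 32 alternative settings, and so did that between tumor and PanIN lines. Some of these settings could not move a median and say nothing of its stability. They are robust eBayes, the fit of only the 2 groups compared, and the fits without a line of the group not compared. The median difference between PanIN and normal lines changed sign. For tumor against normal lines the count of members higher was 14; it was 9 after rescaling without the 11 rows that lack an authors' comparison, 0 with the proliferation score as a term, and 4 (without tumor line 5 or 8) to 21 (without tumor line 4) when 1 line was left out. Over all tested genes the higher calls then ran from 1324 (without tumor line 8) to 2838 (without tumor line 4). With the proliferation score the median was 0.029 for tumor against normal lines and 0.077, in place of 0.29, for tumor against PanIN lines. For tumor against PanIN lines the count of 0 became 1 (Nup107) after that rescaling, with median-of-ratios scaling, with quantile normalization and with robust eBayes, and ran from 0 to 21 when 1 line was left out. For PanIN against normal lines the count of members higher was 1 (Aaas) with the proliferation score as a term and 1 (Aaas) with the second and the third identifier series only, a setting chosen after seeing the data. No setting called a member lower. The replicate block used the numbers in the line names. With the replicate block 0 members were called higher for tumor against normal lines (6 at an unadjusted p below 0.05) and 36 of 12500 genes were, against 2219. Whether the numbers pair the lines was not settled by the check made. It covered few same-numbered lines and no differently numbered lines for reference. Deviations of same-numbered tumor and normal lines correlated at 0.25 and -0.31, and those of tumor and PanIN lines at 0.056 to 0.10. Those of PanIN and normal lines correlated at 0.071 and -0.25. The causes of these changes were not tested, and TPM gives no depth against which to set the low members.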
